A study of Mus musculus with 5 samples.

Results

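Immediate early genes are the genes that cells transcribe within minutes of a stimulus, from factors already present and without new protein synthesis. A set of 10 of them, called members below, was followed in mouse aorta: Fos, Fosb, Jun, Junb, Egr1, Egr2, Atf3, Nr4a1, Ier2 and Zfp36. Members were found by their gene symbol in the platform annotation, so that they are 10 of the 12393 genes named on the array, read by 12 of its 22626 probe sets without controls. All 10 genes had a probe set above the filter on low signals, which left 13575 probe sets for testing, and only the second probe set of Egr2 lay below it.

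The arrays came from male mice of 16 to 20 weeks on regular chow, of the strain labelled BKS.Cg-m +/+ Lepr db/J. The db allele removes the long leptin receptor throughout the body, and homozygotes (db/db) grow obese and diabetic. They were compared with heterozygotes (db/+) of that colony, so both groups carry at least 1 db allele. Each array held RNA pooled from 6 aortas after removal of adventitia and periaortic fat. There were 3 db/db pools (replicates 1, 2 and 3) and 2 db/+ pools (replicates 2 and 3). A further db/+ pool that the design implies was not analysed here, and the spread between pools is not the spread between single mice. The measurement is the MAS5 signal, a background-corrected linear intensity per probe set that carries no counting depth, so that precision rests on the number of arrays.

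Fos and Jun family proteins pair through leucine zippers to form the transcription factor AP-1. Egr1 and Egr2 encode zinc finger factors that bind GC-rich sites, Nr4a1 an orphan nuclear receptor, Atf3 a stress-induced bZIP factor, Ier2 a small nuclear protein and Zfp36 tristetraprolin, which binds AU-rich elements and speeds the decay of messenger RNAs. Many of these genes are switched on through the serum response factor SRF, which binds the CArG box, and through CREB, which binds cyclic AMP response elements. Their transcripts are short-lived. In vessels they respond to stretch, growth factors, angiotensin II and injury, and they are also well known to respond to the handling and dissection of tissue.

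RefSeq promoter entries (build GRCm38.p6) were matched by symbol for 8 of the 10 members, and Ier2 and Egr1 had none. Sequences are shown as a description, and whether they bear on the members' common movement between arrays was not tested. Over the 250 bases before each listed start, both strands were searched for the CArG box, the full cyclic AMP response element TGACGTCA, the AP-1 site TGANTCA, the Egr site GCGGGGGCG and TATAAA. The lines give the 150 bases before the start of 4 members, and 30 bases around the CArG box of Egr2, with matches in capitals. The coordinates are chr7:28379229-28379378 on the minus strand for Zfp36, chr10:67537787-67537816 on the plus strand for Egr2, chr7:19310046-19310195 on the minus strand for Fosb, chr15:101266696-101266845 on the plus strand for Nr4a1 and chr12:85473740-85473889 on the plus strand for Fos.
Zfp36: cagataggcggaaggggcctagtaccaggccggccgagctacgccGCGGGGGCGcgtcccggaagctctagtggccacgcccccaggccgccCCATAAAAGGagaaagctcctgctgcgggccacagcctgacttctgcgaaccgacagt
Egr2: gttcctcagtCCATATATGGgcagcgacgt
Fosb: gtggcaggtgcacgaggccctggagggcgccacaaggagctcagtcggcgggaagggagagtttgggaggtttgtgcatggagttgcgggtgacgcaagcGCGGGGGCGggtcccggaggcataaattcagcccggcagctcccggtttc
Nr4a1: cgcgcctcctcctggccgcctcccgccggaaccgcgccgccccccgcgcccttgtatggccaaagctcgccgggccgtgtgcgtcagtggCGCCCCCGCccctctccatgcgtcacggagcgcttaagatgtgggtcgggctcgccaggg
Fos: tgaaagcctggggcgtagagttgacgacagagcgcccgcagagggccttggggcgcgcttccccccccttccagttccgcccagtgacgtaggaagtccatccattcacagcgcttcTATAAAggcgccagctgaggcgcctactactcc

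The CArG box was found for 2 of the 8 members, Zfp36 and Egr2, and in 1.47% of the 32851 promoters of the table. In Zfp36 it began 58 bases before the start. For Egr2 the table lists 5 starts, and the box shown began 72, 73 and 133 bases before 3 of them. Another start of Egr2 had a CArG box of different letters, not shown, and the remaining start had none. A member with several starts has more windows in which to hold a match, and the shares of all promoters are per window. The Egr site was found for 3 members, Zfp36, Fosb and Nr4a1 (in Nr4a1 on the opposite strand), and in 2.57% of all promoters. TATAAA was found for Fos alone, against 12.4% of all promoters. The full cyclic AMP response element and the AP-1 site were found for 0 of the 8, against 1.55% and 6.75% of all promoters. A match is only a match of letters, and sites outside these windows were not searched.

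On the whole arrays, log2 signals of array pairs correlated across the tested probe sets with r between 0.952 and 0.977. Smooth muscle markers, which define the aortic wall, were measured 6 of 6 and were bright on every array, with Acta2 between 6379 and 9147. The summed signal of 6 endothelial markers was 1003 to 1309 in db/db and 1537 and 1672 in db/+, and that of 7 macrophage markers was 1614 to 1879 and 2748 and 3402. Singly, Pecam1, Vwf, Esam and Tek were lower on every db/db array, but none passed the test (limma adjusted p from 0.23 to 0.61). Cdh5 and Kdr overlapped between genotypes, with log2 changes of −0.06 and 0.04. Among the macrophage markers Adgre1 alone overlapped, and 0 of the 6 tested passed at an adjusted p under 0.05 with limma. Of all tested probe sets, 25% did not overlap between genotypes. Endothelial cells and macrophages can express immediate early genes, and the part of these lower sums in db/db was not tested. Transcripts of other tissues were present too. The summed signal of 6 cardiac muscle markers was 3321 in db/db replicate 2 and between 449.6 and 1083 on the other arrays. That of 6 hepatocyte markers was between 258.5 and 484.9 in db/db and 1142 and 1149 in db/+. Apoa1 among them went the other way, from 51.9 to 98.8 in db/db and at 41.3 and 27.1 in db/+. Lepr differed by 0.26 on the log2 scale (SE 0.17, limma adjusted p = 0.77). The db allele alters splicing, and whether the probe set reads the affected exon was not checked, so this is no check of the genotype.

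None of the 10 members differed between db/db and db/+ by the test, and none had arrays that did not overlap between genotypes. The members instead differed among pools of the same genotype, and they did so together. Within db/db, replicate 3 was highest and replicate 2 lowest for most members, and within db/+ replicate 2 exceeded replicate 3 for all 10. In the following, each member's signals are given for db/db replicates 1, 2 and 3 and then for db/+ replicates 2 and 3. A log2 change is db/db minus db/+ on the log2(signal + 16) scale with its standard error (SE) from limma, and the adjusted p is over all 13575 probe sets.

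**Figure D1:**
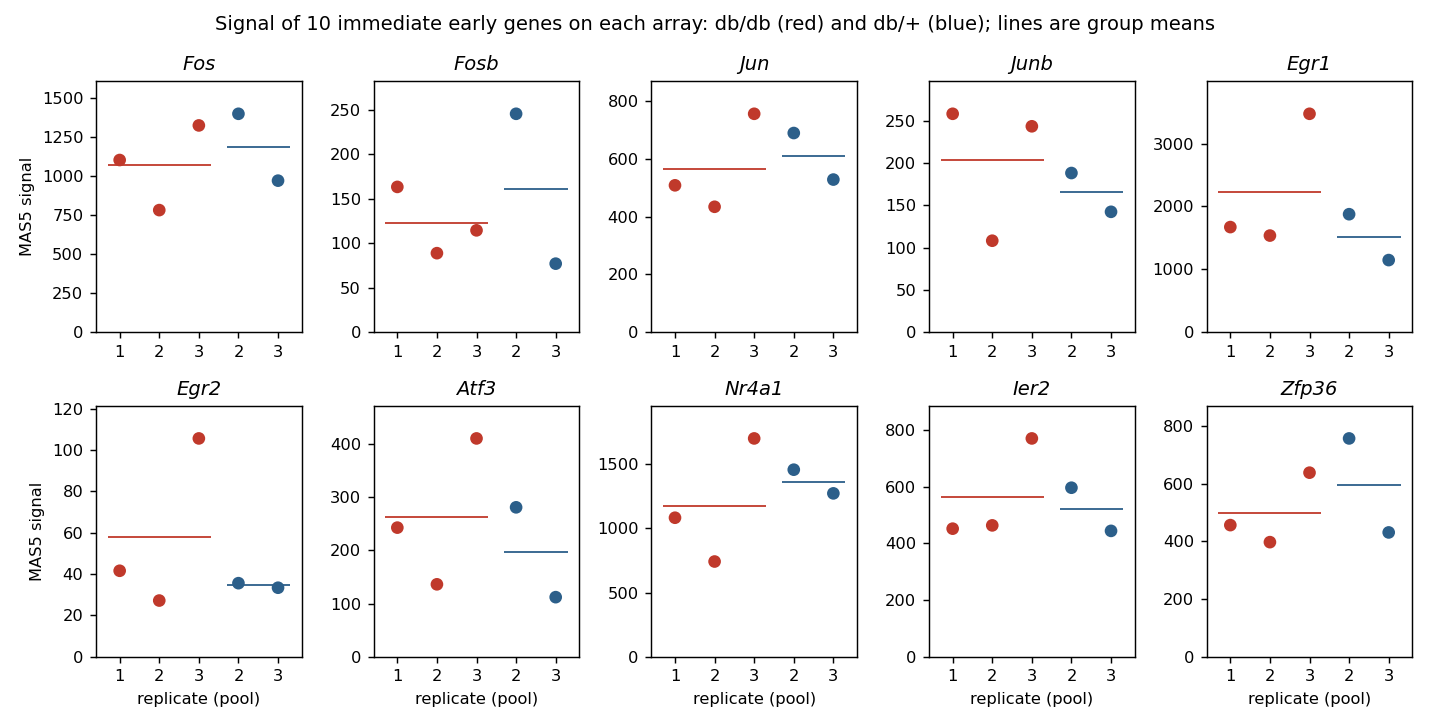
MAS5 signal (vertical axes, linear, from 0, each gene on its own scale) of the 10 members on the 3 db/db arrays (red) and the 2 db/+ arrays (blue), with replicate numbers below and lines at group means. The genotypes overlap for every member, and db/+ replicate 2 lies above db/+ replicate 3 in all 10 panels.

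The Fos family came first. Fos, whose protein is the classic partner of Jun in AP-1, had signals of 1102, 781 and 1323 in db/db and of 1398 and 970 in db/+. The db/+ arrays enclosed 2 of the 3 db/db arrays, and the mean was 1069 ± 273 (SD, n = 3) in db/db and 1184 ± 303 (SD, n = 2) in db/+. The log2 change was −0.15 (SE 0.25, limma adjusted p = 0.92). Fosb, the second Fos family member, had 163.5, 88.9 and 114.6 in db/db and 245.8 and 77.1 in db/+. Its highest and its lowest array were both db/+, a 3.19-fold gap between pools of the control genotype, and the db/db arrays lay between them. Its log2 change was −0.21 (SE 0.40, limma adjusted p = 0.93).

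Jun, the AP-1 subunit that can also pair with itself, was read by 2 probe sets. The brighter had 508, 434 and 756 in db/db and 689 and 528 in db/+, and its log2 change was −0.13 with SE 0.24 and an adjusted p of 0.93 from limma. The dimmer had 271, 369.5 and 428 in db/db and 404 and 311 in db/+, with a log2 change of −0.02 (SE 0.22). Both probe sets were highest in db/db replicate 3 and higher in db/+ replicate 2 than in db/+ replicate 3, but the lowest array differed, db/db replicate 2 at the brighter and db/db replicate 1 at the dimmer. Junb, a weaker activator that can oppose Jun, had 258, 108 and 244 in db/db and 188 and 142 in db/+. The control arrays lay inside the range of the db/db arrays, which spanned 2.39-fold. Its log2 change was 0.20 (SE 0.33, limma adjusted p = 0.92).

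The zinc finger factor Egr1 had 1671, 1536 and 3473 in db/db and 1876 and 1146 in db/+. A single array, db/db replicate 3, stood above the other 4, and db/+ replicate 2 exceeded the other db/db arrays. The mean was 2227 ± 1081 (SD, n = 3) against 1511 ± 516 (SD, n = 2), and the log2 change of 0.50 with SE 0.35 (adjusted p of 0.80 from limma) had the smallest p among the members. Egr2, known for its part in nerve myelination and T cells, had 41.6, 27.2 and 105.6 in db/db and 35.6 and 33.4 in db/+. Its signal was dim on 4 arrays, close to the filter's level of 39.5, and db/db replicate 3 was the exception. The log2 change was 0.41 (SE 0.37, limma adjusted p = 0.85). The second Egr2 probe set, below the filter, had 12.3, 11.8 and 54.3 in db/db and 18.6 and 10.2 in db/+, and db/db replicate 3 was the highest there too.

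Atf3 had 242, 136 and 410 in db/db and 280.5 and 112 in db/+. It varied by 3.01-fold among db/db pools and by 2.51-fold between db/+ pools, and its log2 change was 0.39 (SE 0.45, limma adjusted p = 0.88). Nr4a1 had 1083.5, 742 and 1701 in db/db and 1458 and 1273 in db/+. Its db/+ arrays both lay between the second and the highest db/db array, and its log2 change was −0.29 (SE 0.30, limma adjusted p = 0.87). Ier2 had 451.5, 463 and 769.5 in db/db and 596 and 444 in db/+. At a log2 change of 0.08 with SE 0.25 and an adjusted p of 0.96 from limma it had the smallest difference of the 10. Zfp36 had 457, 398 and 639 in db/db and 757.5 and 431 in db/+. Its highest array was db/+ replicate 2, and its log2 change was −0.22 (SE 0.27, limma adjusted p = 0.89).

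Across the members, 5 had a positive and 5 a negative log2 change. Their median was −0.02, and that of all tested probe sets was 0.02. At an adjusted p under 0.05, 0 of the 10 passed with limma, where 0.081% of all tested probe sets did. At an unadjusted p under 0.05 it was again 0 of 10, where 8.13% of all tested probe sets passed. The ranges of db/db and db/+ were separate at 0 of the 10 members and at 25% of the tested probe sets.

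**Figure D2:**
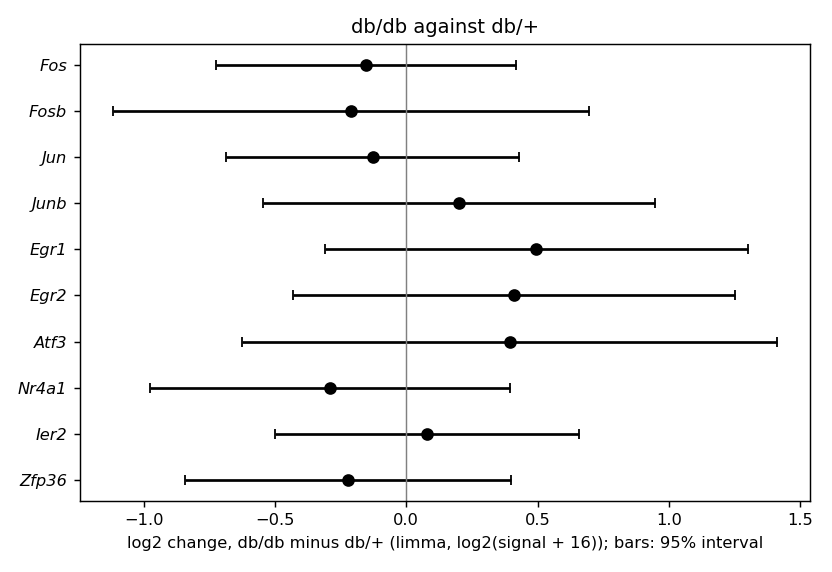
Log2 change of each member (points, db/db minus db/+, log2(signal + 16) scale) with the 95% interval from limma (bars), 3 db/db and 2 db/+ arrays. All 10 intervals include 0, and they are widest for Atf3 and Fosb.

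The 95% intervals are those of limma, which draws each gene's spread toward that of all tested probe sets. The members spread more between pools than most probe sets, as given below. Their intervals are therefore narrower than their own pools alone would give, and the following bounds depend on this. For 6 members, Fos, Jun, Junb, Nr4a1, Ier2 and Zfp36, the interval lay within a 2-fold change in either direction on the log2(signal + 16) scale. For Fos it ran from 0.605 to 1.33 times the db/+ level. For the other 4 it reached beyond 2-fold. The interval of Egr1 ran from 0.806 to 2.47 times the db/+ level, that of Egr2 from 0.742 to 2.38, that of Atf3 from 0.649 to 2.66 and that of Fosb from 0.461 to 1.62. Changes of that size in these genes lay within the 95% intervals. All these ratios are of signal + 16, which understates changes of a dim gene such as Egr2. Its log2 change was 0.51 with 1 added in place of 16, and 0.26 with 64 added.

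The common movement of the members was described within each genotype. In db/+, all 10 members had a higher signal in replicate 2 than in replicate 3, as did 48.6% of the tested probe sets. In db/db, all 10 had a higher signal in replicate 3 than in replicate 2, as did 51.4% of the tested probe sets. Replicate 3 was the highest db/db array for 8 members, the exceptions being Fosb and Junb, and for 30.6% of the tested probe sets. Replicate 2 was the lowest for 9 members, the exception being Ier2, and for 37.7% of the tested probe sets. Both the db/+ order and the db/db order of replicates 2 and 3 held for all 10 members together, and for 24.0% of the tested probe sets. The members were not independent of one another, these orders were noted after the values were seen, and each pool is 1 sample, so that no test is given.

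**Figure D3:**
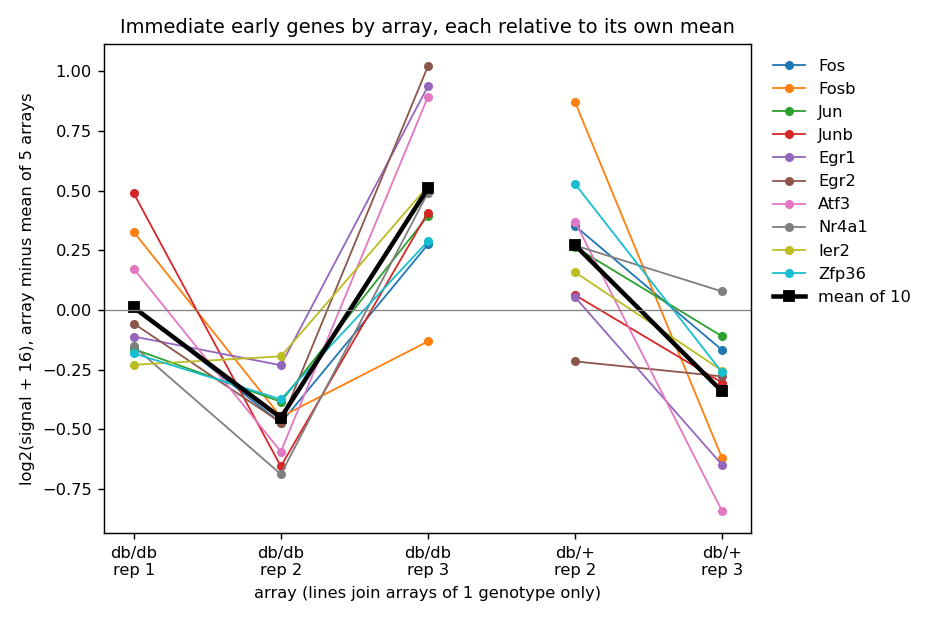
Log2(signal + 16) of each member on each array minus its own mean over the 5 arrays (coloured lines, joined within a genotype only), with the mean of the 10 members in black. The mean is lowest in db/db replicate 2 (−0.45) and db/+ replicate 3 (−0.34) and highest in db/db replicate 3 (0.51) and db/+ replicate 2 (0.27).

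The mean of the members, each taken relative to its own mean over the 5 arrays, was 0.01, −0.45 and 0.51 on the log2 scale in db/db replicates 1, 2 and 3, and 0.27 and −0.34 in db/+ replicates 2 and 3. Fos and Jun lay closest to this course, with root mean square differences of 0.14 each on the log2 scale. Fosb lay farthest from it, at 0.44, because its db/+ arrays differed by 1.49 on the log2 scale while its db/db replicates 3 and 2 differed by 0.32. Egr2 showed the opposite balance, with 0.06 between the db/+ arrays and 1.49 between db/db replicates 3 and 2.

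The spread between pools of 1 genotype, pooled over both genotypes on the log2 scale, was 0.36 for Jun, 0.38 for Fos and Ier2 and 0.43 for Zfp36. It was 0.49 for Nr4a1, 0.54 for Junb, 0.60 for Egr1, 0.63 for Egr2, 0.69 for Fosb and 0.78 for Atf3. The median was 0.52 over the members and 0.19 over all tested probe sets. Each of the 10 exceeded that median, and they lay between the 89.6th percentile (Jun) and the 99.6th (Atf3) of all tested probe sets. A log2 change had therefore to be larger for these genes than for most others to pass.

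**Figure D4:**
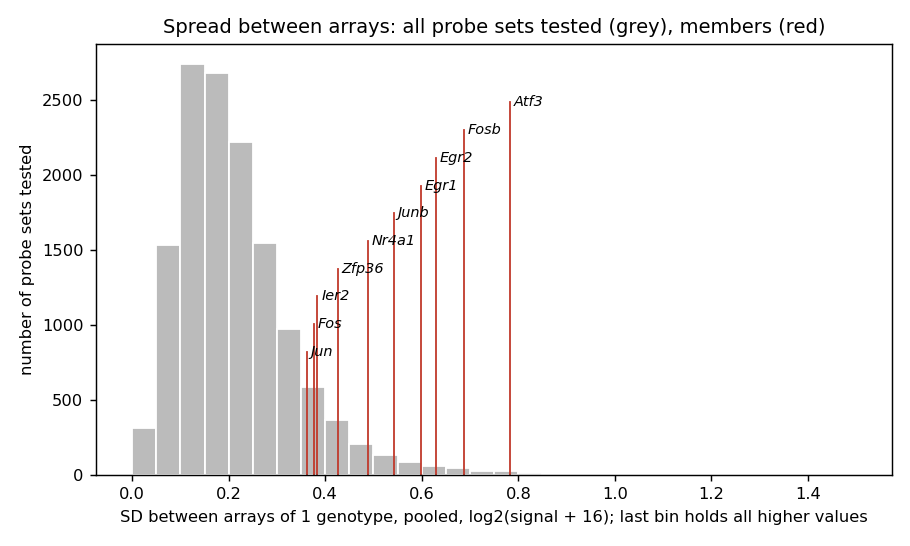
Distribution of the SD between arrays of the same genotype (horizontal axis, log2(signal + 16)) over the 13575 tested probe sets (grey bars, number of probe sets), with the members as labelled red lines whose height has no meaning. The members lie between 0.36 for Jun and 0.78 for Atf3, to the right of the overall median of 0.19.

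The sign of the log2 change depended on single pools for at least 7 of the 10 members. Egr1 stayed positive and Nr4a1 negative with each array left out in turn. Egr2 stayed positive in the 4 of these settings in which it was tested, all of which kept its brightest array, db/db replicate 3. Its other db/db signals, 41.6 and 27.2, lay on either side of its db/+ signals of 35.6 and 33.4. Without db/+ replicate 2, 9 of the 10 members had a positive log2 change (median 0.34), and only Nr4a1 was negative, at −0.19. Without db/+ replicate 3, 7 were negative (median −0.26), and Egr1, Egr2 and Junb stayed positive, at 0.14, 0.38 and 0.02. Fosb went from 0.54 to −0.96 between these settings, and Atf3 from 0.9996 to −0.21. Without db/db replicate 3, the change of Egr1 went from 0.50 to 0.13 and that of Atf3 from 0.39 to 0.03, and Egr2 no longer passed the filter on low signals. Without db/db replicate 2, Nr4a1 went from −0.29 to −0.0045. Leaving out db/db replicate 1 or 2 gave medians of −0.04 and 0.12. In each of these settings 0 members passed at an adjusted p under 0.05 with limma, and fits without a db/+ array rest on a single control pool.

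**Figure D5:**
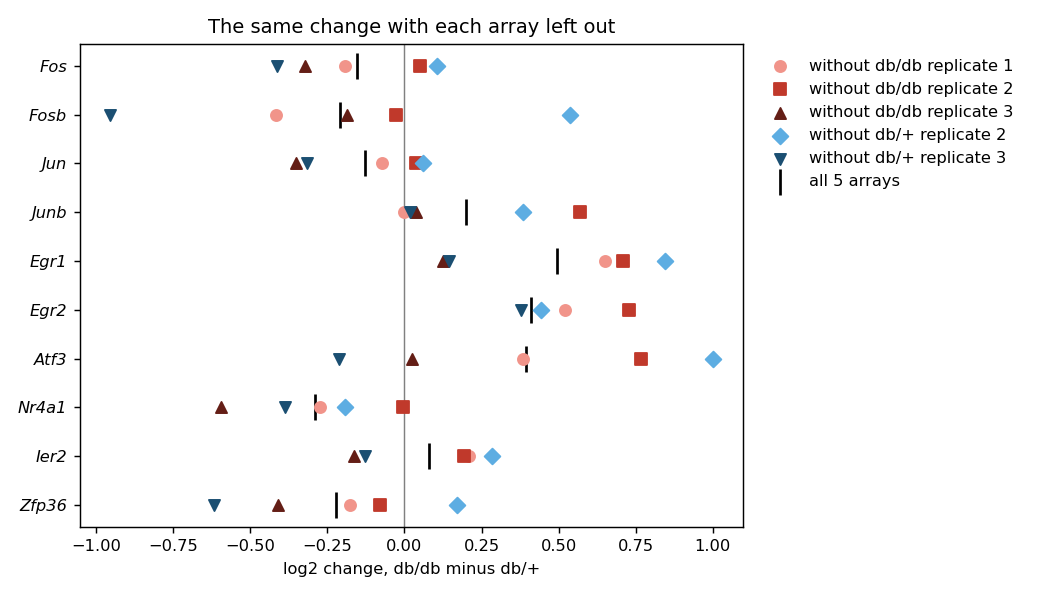
Log2 change of each member (horizontal axis, db/db minus db/+) with all 5 arrays (black bar) and with each array left out in turn (coloured symbols). Light blue diamonds, without db/+ replicate 2, lie above 0 for 9 of 10 members, and dark blue triangles, without db/+ replicate 3, lie below 0 for 7.

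Within each genotype, measures of RNA degradation were ordered inversely to the mean of the members. The ratio of the 3′ to the 5′ beta-actin control probe sets, which grows as RNA is degraded, was 1.14 in db/db replicate 3, 1.23 in replicate 1 and 1.32 in replicate 2. In db/+ it was 1.28 in replicate 2 and 1.34 in replicate 3. The same ratio for Gapdh was 0.838, 1.02 and 1.07 in db/db replicates 3, 1 and 2, and 0.920 and 0.940 in db/+ replicates 2 and 3. Within each genotype, the mean of the members was thus higher where both ratios were lower. This did not hold across genotypes, since the beta-actin ratio of db/+ replicate 2 was above that of db/db replicate 1 while its mean of the members was also higher. The part of RNA integrity in their order was not tested. Cardiac muscle markers were at their highest in db/db replicate 2, where 9 of the 10 members had their lowest db/db signal. The sums of adipocyte markers peaked on that array too. Singly, Fabp4, Retn, Ucp1 and Cidea did so, while Adipoq, Lep, Elovl3 and Ppargc1a were highest on other arrays. The sum of 4 brown adipocyte markers was 3724, 7424 and 6286 in db/db and 4683 and 4913 in db/+. That of 4 white and general adipocyte markers was 4817, 8133 and 6215 in db/db and 7595 and 6895 in db/+. Fat transcripts were thus present on every array, although the labels say that periaortic fat was removed. The sum of 6 skeletal muscle markers was 217, 431 and 197 in db/db and 894 and 289 in db/+, so that it was high in db/db replicate 2, where the members were low, and in db/+ replicate 2, where they were high. Endothelial markers summed to 1003, 1114 and 1309 in db/db and to 1672 and 1537 in db/+. Their sum shared the members' order of replicates 2 and 3 in both genotypes, but was lowest in db/db replicate 1. Singly, 4 of the 6 shared both orders, against 24.0% of all tested probe sets. Smooth muscle markers summed to 26102, 24148 and 21329 in db/db and to 19340 and 22398 in db/+. Fibroblast markers summed to 16818, 15392 and 13949 in db/db and to 13301 and 15868 in db/+. Both sums were lowest in each genotype where the mean of the members was highest. Singly, db/+ replicate 2 was above replicate 3 for 3 of the 6 smooth muscle and 0 of the 6 fibroblast markers. The part of these cell types and tissues in the members' order was not tested. In pooled tissue, fewer cells that express a gene and less RNA per cell cannot be told apart.

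The heat shock genes, which cells induce on protein damage, were listed alongside. Of 12 tested, 0 passed with limma, and 0 had an unadjusted p under 0.05, with 9 positive and 3 negative log2 changes and a median of 0.13. Higher signals in db/+ replicate 2 than 3 were seen for 11 of the 12, against 48.6% of all tested probe sets. Both orders described above held for 8, against 24.0% of all tested probe sets. The genes with the smallest p were the mitochondrial cochaperonin gene Hspe1 (log2 change 0.23), the chaperone gene Hsp90aa1 (0.21), the DnaJ cochaperone gene Dnaja1 (0.20) and Bag3, a regulator of chaperone-assisted autophagy (0.15), with limma adjusted p from 0.84 to 0.87. Dnajb1 and Hspa1a, inducible members of the DnaJ and Hsp70 families, were picked after their values were seen. Dnajb1 had 450.1, 252 and 1087 in db/db and 441 and 440.1 in db/+, and only db/db replicate 3 stood high. Hspa1a had 438, 425 and 839.8 in db/db and 739 and 342 in db/+. Its probe set may also read the near-identical Hspa1b, which had 2117 in db/db replicate 3 and 2123 in db/+ replicate 2, against 1074 to 1631 on the other arrays.

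A wider list of 55 primary response genes had 50 measured and 39 tested. At an adjusted p under 0.05 with limma, reached by 0.081% of all tested probe sets, 1 gene was lower and 0 were higher. It was Plk2, a kinase gene of the stress response, with 49.5, 64.6 and 70.3 in db/db and 214 and 190 in db/+ (log2 change −1.50, SE 0.18, limma adjusted p = 0.031), and its genotypes did not overlap. Without db/+ replicate 2, 0 of all tested probe sets passed with limma, so that Plk2 did not pass either. Thbs1, which encodes the matrix protein thrombospondin 1, had 69.7, 54.2 and 91.9 in db/db and 246 and 165 in db/+ (log2 change −1.33, SE 0.23, limma adjusted p = 0.096). Phlda1, a pleckstrin-domain gene, had a log2 change of 0.84 and the clock-linked repressor gene Bhlhe40 one of 0.69 (limma adjusted p = 0.35 and 0.60). The list had 14 positive and 25 negative changes with a median of −0.09. At an unadjusted p under 0.05, 2 of its genes were higher and 2 lower, where 8.13% of all tested probe sets passed. Without overlap between genotypes, 2 were higher and 5 lower, against 25% of all tested probe sets. Both orders described above held for 25 of the 39, against 24.0% of all tested probe sets. Arc, a gene of synaptic plasticity below the filter and picked after its values were seen, had 137 in db/db replicate 3 and between 3.4 and 25.7 on the other arrays.

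Among further AP-1 and bZIP partners, 15 of 21 were tested and 0 passed with limma. At an unadjusted p under 0.05, 2 were higher and 3 lower in db/db, where 8.13% of all tested probe sets passed. Changes were positive for 7 and negative for 8, with a median of −0.12. Both orders described above held for 6 of the 15, against 24.0% of all tested probe sets. The smallest p values were those of Atf5, a stress-linked bZIP factor (log2 change 0.65), Cebpd and Cebpa, bZIP factors of adipocytes and inflammation (−0.59 and −0.46), and the small Maf gene Maff (−0.64), with limma adjusted p from 0.37 to 0.60. The EGR, NR4A and NAB genes beside the members had 7 measured and 4 tested, of which 0 passed with limma and 0 had an unadjusted p under 0.05. Their log2 changes were 0.20 for Nab2 and −0.11 for Nab1, corepressors of Egr proteins, −0.35 for Egr3 and −0.09 for Nr4a2 (limma adjusted p from 0.85 to 0.93). Egr3 had 60.2, 39.4 and 122 in db/db and 78.9 and 103 in db/+, so that its db/+ arrays did not follow the order of the members. Of the 4 EGR, NR4A and NAB genes tested, 2 followed both orders.

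Upstream of the members, the kinases and factors of the MAP kinase, SRF and CREB routes had 24 of 36 measured and 23 tested. Of these, 0 passed with limma and 1 had an unadjusted p under 0.05, against 8.13% of all tested probe sets. There were 10 positive and 13 negative changes with a median of −0.03. Mef2c, a factor of muscle genes, Crebbp and Crtc3, which encode unrelated coactivators of CREB, and the stress kinase gene Mapk14 had log2 changes of 0.38, −0.35, 0.30 and −0.25 (limma adjusted p from 0.60 to 0.76). Both orders held for 7 of the 23, against 24.0% of all tested probe sets. In the list of the Zfp36 family and AU-rich RNA decay, 9 of 13 were tested, and 0 passed with limma. At an unadjusted p under 0.05 there was 1, against 8.13% of all tested probe sets, and the median change was 0.06. Both orders held for 4 of the 9. Zfp36l1, a close relative of Zfp36, had 535, 558 and 590 in db/db and 449 and 309 in db/+ (log2 change 0.57, SE 0.19, limma adjusted p = 0.45), without overlap. Mapkapk2, the kinase that inactivates tristetraprolin, had 0.24, and the deadenylase subunits Cnot8 and Cnot7 had 0.09 and −0.09 (limma adjusted p from 0.78 to 0.93).

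The genes outside the members whose course over the 5 arrays was nearest to the members' mean were searched among 8253 genes, by the root mean square difference on the log2 scale. They were Irgm1, an interferon-induced GTPase gene (0.06), Btg2, an antiproliferative primary response gene (0.08), Pdgfd, a growth factor gene (0.09), Rapgef6, an exchange factor gene (0.12), Rcan1, a calcineurin inhibitor gene (0.12), and Fosl1, a further Fos family gene (0.13). Of these, Btg2, Rcan1 and Fosl1 stood on the lists above. Btg2 had 563.5, 430 and 916 in db/db and 682 and 430 in db/+. With 5 arrays such closeness is a description only.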

How the data were processed

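The authors deposited 1 signal intensity for each probe set, on a linear scale. MAS5 made it, as the submitters' processing notes say without a version. On each array the 2% trimmed mean was 150, and signals were used without further normalization. Controls (64 probe sets) were left out. The platform annotation gave 1 symbol for 20380 probe sets, and RefSeq identifiers matched 20351. Values were taken as log2(signal + 16), which understates changes of dim genes. Probe sets whose mean log2 value exceeded the 40th percentile (a signal of 39.5) entered a fit of genotype alone by limma 3.58.1 (R 4.3.3, lmFit and eBayes), whose two-sided p-values were adjusted over all 13575 after Benjamini and Hochberg. They measure the spread between pools only. A gene is represented by its probe set with the highest mean. The members and the gene lists were chosen with earlier results of these data known. Genes named were all members, the 4 of each further list with the smallest p, the 6 nearest in course, and those said to be picked after seeing values. No label gives a batch, detection calls were not used here, and the array's genome build is not given in the sources used here. Promoters are from RefSeq. Alternatives were other pseudocounts, filters, scalings, variance models, array weights, a replicate block, a threshold of 0.1, means of probe sets and arrays left out.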

Additional observations from a re-analysis of the deposited data

How the results depend on the processing

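Members past an adjusted p of 0.05 with limma numbered 0 under each of the 15 alternative fits and at a threshold of 0.1. Their 140 alternative log2 changes had adjusted p of at least 0.40, and 11 of them changed sign, 10 with an array left out. With an array left out, the change of Fos ranged from −0.41 to 0.11, Fosb from −0.96 to 0.54, Jun from −0.35 to 0.059, Junb from −0.0027 to 0.57, Atf3 from −0.21 to 0.9996, Ier2 from −0.16 to 0.29 and Zfp36 from −0.62 to 0.17. Egr1 (0.13 to 0.85) and Nr4a1 (−0.59 to −0.0045) kept their sign but moved by over 1.5 times. Egr2 (0.38 to 0.73) did so too, but only over settings that kept db/db replicate 3. With the replicate block Junb had −0.0027. Since only db/db has a replicate 1, the block gave each member the same log2 change as leaving out db/db replicate 1. Settings that changed only the filter or the variance model left each log2 change as it was, so they could not change a sign. Same-numbered pools deviated together with r of 0.11 and −0.0048, so the numbers were not taken as pairs. Over all probe sets 11 passed as reported, 20 with the replicate block, 2 and 37 with pseudocounts of 1 and 64, 1 with no filter, 22 with a filter at the 60th percentile, 19 with median centring, 39 with trend and robust, 48 with array weights, 17 with means of probe sets, 48 at a threshold of 0.1, and 0 to 28 with an array left out. The orders of the members between pools were the same under quantile normalization and median centring, 2 settings added after seeing the data. Egr2 was not tested with the filter at the 60th percentile or without db/db replicate 3. Depth is unknown, and Egr2 is limited by its dim signal.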
